A study of Mus musculus with 3 samples.

Results

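Polycomb and trithorax genes were followed across 3 Affymetrix arrays of mouse LSK cells, the lineage-negative, Sca-1-positive, Kit-positive fraction in which blood stem cells are found along with multipotent progenitors. The 3 arrays were 1 of cells without p53 and without Mef (DKO, labelled P53 KO/MEF KO), 1 of cells without p53 (p53 KO) and 1 of wild-type cells (WT). The tumour suppressor p53 is a transcription factor, and Mef, encoded by Elf4, is a transcription factor of the ETS family. Both knockout arrays lacked p53, so DKO against p53 KO sets cells with and without Mef side by side on a p53-null background. Strain, age and sex of the mice, the number of animals behind each array and the alleles used were not given in the sources used here. There were no replicates, so a difference compares 1 array with 1 other, has no error and was not tested.

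The genes were chosen by name. The list held 39 genes of Polycomb repressive complexes 1 and 2 (PRC1 and PRC2), of the deubiquitinase that counters PRC1, of trithorax-type complexes that methylate lysine 4 of histone H3, and of the demethylases that remove either histone H3 mark. Of these, 38 had a probe set annotated to 1 gene, out of 18194 genes so named on the array, and each was represented by its brightest such probe set. Ash1l, a trithorax-type methyltransferase gene, had none in the annotation used and was not analysed here. Pcgf1 and Pcgf2, which encode PCGF subunits of PRC1, stayed below the floor of 110.4 signal units, the median of all signals, on all 3 arrays. Pcgf1 had 76.4, 34.2 and 109.9 units and Pcgf2 had 54.6, 44.6 and 48.0 units on the DKO, p53 KO and WT arrays. The other 36 genes were at or over the floor on all 3 arrays. Signals of different probe sets cannot be set against each other, so levels are compared only between arrays.

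Polycomb proteins keep developmental genes silent, and trithorax proteins keep such genes active in cells where they are already on. PRC1 places ubiquitin on histone H2A through a ligase, Ring1 or Rnf2, paired with 1 PCGF subunit, and PRC2 methylates lysine 27 of histone H3 through Ezh1 or Ezh2. In blood stem cells Bmi1 is known for sustaining self-renewal and for repressing the Cdkn2a locus, while Kmt2a with menin sustains Hoxa9 and Meis1.

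Promoter sequence is shown for the 2 genes at least 2-fold different that had a window in the table used, Ring1 and Pcgf6, and for Suz12 and Ezh2, a PRC2 pair of which Suz12 was lower on the DKO array and Ezh2 was level. Sequences are RefSeq windows of the GRCm38.p6 build, 250 bases before to 50 bases after the gene start, and Kdm6b had no window. Ring1 lies at chr17:34024631-34024930 on the minus strand, Pcgf6 at chr19:47050857-47051156 on the minus strand, Suz12 at chr11:79992856-79993155 on the plus strand and Ezh2 at chr6:47594981-47595280 on the minus strand. Capitals mark E2F words.
Ring1: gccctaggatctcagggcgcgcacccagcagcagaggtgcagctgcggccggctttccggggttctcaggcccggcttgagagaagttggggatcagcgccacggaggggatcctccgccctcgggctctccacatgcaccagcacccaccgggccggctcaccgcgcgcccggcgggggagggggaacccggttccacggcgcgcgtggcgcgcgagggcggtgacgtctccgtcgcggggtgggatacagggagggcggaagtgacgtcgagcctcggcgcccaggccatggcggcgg
Pcgf6: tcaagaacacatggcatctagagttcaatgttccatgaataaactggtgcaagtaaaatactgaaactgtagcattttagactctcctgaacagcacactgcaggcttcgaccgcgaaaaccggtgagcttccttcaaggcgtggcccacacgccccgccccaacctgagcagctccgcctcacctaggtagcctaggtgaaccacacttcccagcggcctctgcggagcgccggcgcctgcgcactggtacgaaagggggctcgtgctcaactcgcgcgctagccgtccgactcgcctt
Suz12: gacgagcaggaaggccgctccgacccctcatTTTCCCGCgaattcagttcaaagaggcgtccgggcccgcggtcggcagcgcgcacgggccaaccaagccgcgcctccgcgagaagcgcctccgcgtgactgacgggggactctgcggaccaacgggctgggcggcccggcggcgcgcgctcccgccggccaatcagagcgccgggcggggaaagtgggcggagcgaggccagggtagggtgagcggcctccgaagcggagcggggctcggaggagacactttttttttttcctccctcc
Ezh2: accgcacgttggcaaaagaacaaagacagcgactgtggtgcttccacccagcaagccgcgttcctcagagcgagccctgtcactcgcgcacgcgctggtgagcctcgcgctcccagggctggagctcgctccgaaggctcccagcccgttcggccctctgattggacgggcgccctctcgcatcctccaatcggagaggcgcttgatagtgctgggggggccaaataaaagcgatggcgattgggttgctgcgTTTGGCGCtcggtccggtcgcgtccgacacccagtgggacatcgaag
The motifs, searched on both strands, were the ETS word CCGGAAG, the E2F words TTTCCCGC, TTTGGCGC, TTTCGCGC and TTTGCCGC, and the p53 response element by its name. An E2F word began 219 bases before the Suz12 start and at base 4 of the Ezh2 transcript, and neither overlapped an ETS word or a p53 element. Windows were found for 33 of the 39 genes, 41 windows in all. Among them, E2F words were in those of Ezh2, Suz12 and the PRC2 cofactor gene Phf19 (7.32% of the windows, against 2.26% of all 32851 windows), the ETS word was in those of Phc2, Asxl1 and Asxl2 (7.32% against 8.86%), and the p53 response element was in 0, against 0.0731% of all. A match describes letters only, and no site was measured here. The windows had a median GC content of 64.3%, against 52.7% over all windows.

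Most of the Polycomb and trithorax genes had similar signals on the 3 arrays. Of the 36 measured genes, 3 were at least 2-fold different in any of the 3 comparisons, where 18.8% of all measured genes were: Ring1 and Pcgf6 were lower on the p53 KO array than on the WT array, and Kdm6b was lower on the DKO array than on the WT array. A further 8 were at least 1.5-fold but under 2-fold different, and 25 were under 1.5-fold in every comparison. In all, 48.5% of measured genes reached 1.5-fold in at least 1 comparison. Of the 11 listed genes that did, 8 were among 13 measured PRC1 genes, while 1 was a PRC2 gene, 2 were demethylase genes and none was a trithorax or deubiquitinase gene.

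**Figure D1:**
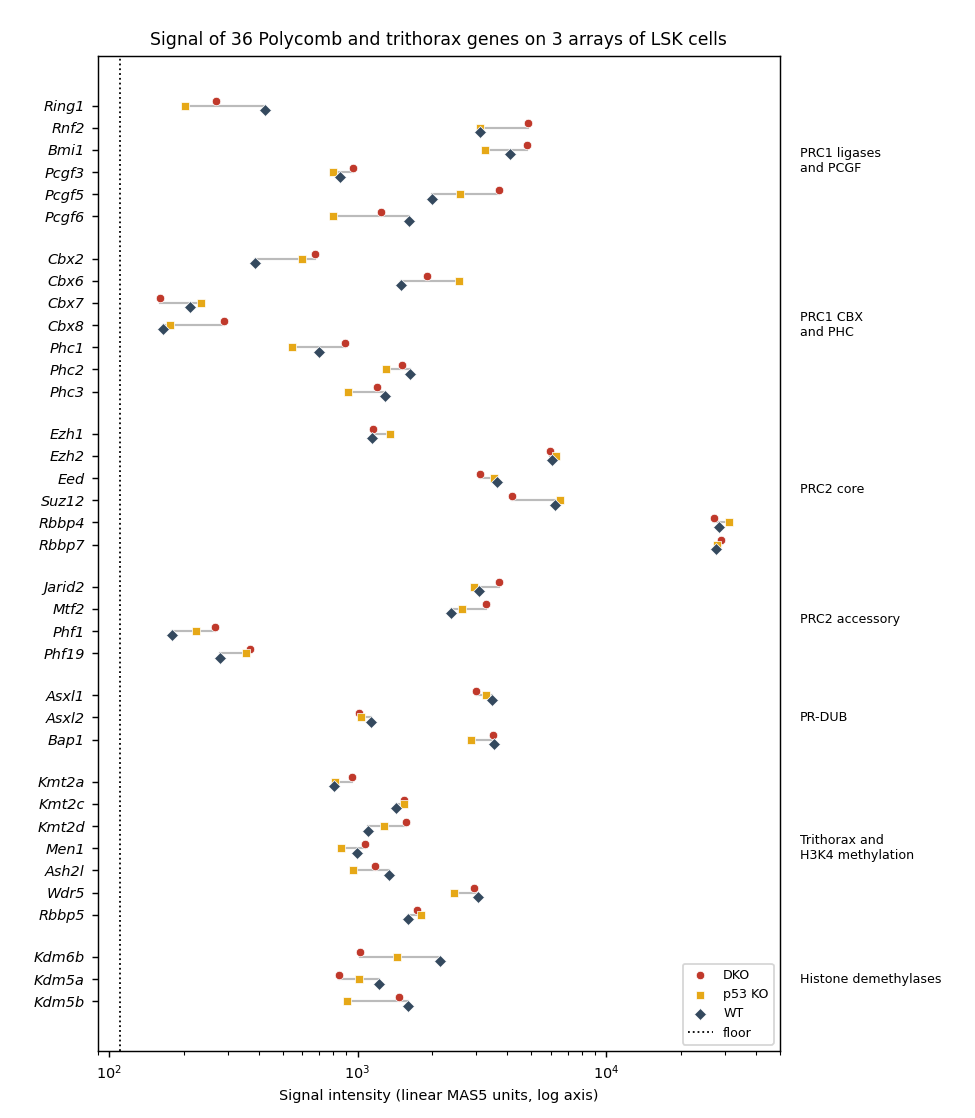
Signal of each measured gene (rows, by complex) on the DKO, p53 KO and WT arrays, in linear units on a log axis, with a grey bar over the range and a dotted line at the floor of 110.4. Bars are short for most PRC2 core and trithorax genes, and longest for Ring1, Pcgf5, Pcgf6, Cbx2, Cbx8, Kdm6b and Kdm5b. Signals are to be compared along a row only.

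The count of genes past 2-fold was small beside the arrays as a whole. For p53 KO against WT, 0 of the 36 genes stood 2-fold or more above WT and 2 stood that far below it, where 6.51% and 3.19% of 12597 measured genes did. For DKO against WT the counts were 0 and 1, where 5.22% and 3.10% of all genes were. For DKO against p53 KO they were 0 and 0, where 4.10% and 5.93% of all genes were. At 1.5-fold, 2 genes were higher and 3 lower between the p53 KO and WT arrays (15.4% and 12.5% of all genes), and 4 were higher and 2 lower between the DKO and WT arrays (17.1% and 9.52%). Counts this small against such shares do not set the list apart. The median size of the log2 difference was 0.23, 0.23 and 0.29 for the 36 genes and 0.32, 0.33 and 0.35 for all measured genes, in the same order of comparisons. Among the 31 of these genes and the 7128 genes in all whose mean signal reached the 75th percentile of signals (448.4), median sizes were 0.22, 0.21 and 0.29 for the list and 0.36, 0.32 and 0.33 for all.

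**Figure D2:**
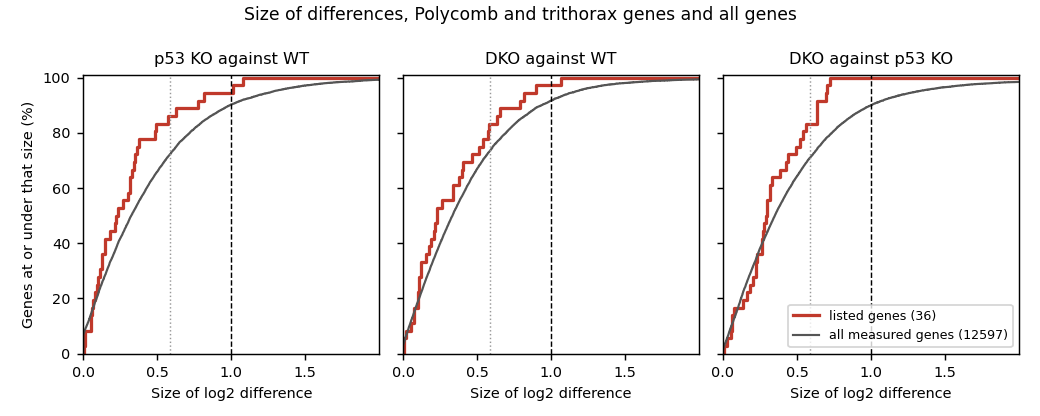
Share of genes (%) at or under a given size of log2 difference, for the 36 measured Polycomb and trithorax genes (red) and all 12597 measured genes (grey), in each comparison. Dotted and dashed lines stand at 1.5-fold and 2-fold. At the dotted line the red curve stands at 86.1%, 83.3% and 83.3% and the grey curve at 72.2%, 73.4% and 70.9%, from left to right. No listed gene passes 2-fold for DKO against p53 KO.

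The arrays themselves differed in ways that stand beside every value here. After the authors' scaling, the 45101 probe sets had a median of 129 units on the DKO, 105 on the p53 KO and 98 on the WT array. Elf4 gave 151, 182 and 57.4 units in the same order, so its signal was not lowest on the array labelled DKO, and directions drawn from that array rest on its label. Whether the probe set lies in the deleted stretch was not given in the sources used here. Summed signal of 6 erythroid markers was 13654 units on the DKO, 51443 on the p53 KO and 65964 on the WT array, with Klf1 at 1972, 9033 and 12847 units. Of these 6, Alas2 alone was higher on the p53 KO than on the WT array, at 1091, 11459 and 1787 units. Summed signal of 6 monocyte and macrophage markers was 15588, 32222 and 9294 units, with all 6 at least 2-fold higher for p53 KO against WT, and that of 5 B cell markers was 1471, 3167 and 1094 units. The 5 LSK markers compared were over the floor on every array, while Ly6a, the gene of Sca-1, had no single-gene probe set. Kit had 4873, 2522 and 4996 units, and the stem and progenitor genes Cd34 (6633, 2442 and 2230 units) and Flt3 (4728, 1492 and 2387 units) were highest on the DKO array, whereas Cd3e and Cd3g of T cells were below the floor on all 3. Ccl5, the 1 measured gene of the T and NK cell list, had 30.2 units on the DKO, 609.95 on the p53 KO and 171 on the WT array. Summed signal of 19 proliferation markers was 149435, 208086 and 166444 units. Immediate early genes, which respond within minutes to stress and handling, summed to 27368, 16901 and 6234 units over 11 genes, with Fos at 14202, 5890 and 1384 units. For DKO against p53 KO, 7 of the 11 were higher and 4 lower, the lower ones being Btg2, Klf4, Klf6 and Nr4a1. Granulocyte markers summed to 78040, 124310 and 71701 units over 6 genes and megakaryocyte markers to 6619, 12029 and 3821 units over 5. The granulocyte genes were split, with 3 higher and 3 lower on the DKO array in either of its comparisons. Against WT, Elane and Ctsg were at 1.53 and 1.54 there, and Ltf and Camp at -1.16 and -1.19. What part these shifts have in the differences below was not tested, and in RNA of mixed cells fewer cells of a type and less RNA per cell cannot be told apart.

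The ligase and PCGF subunits of PRC1 were compared first. Ring1, a ligase subunit, had 271 units on the DKO, 202 on the p53 KO and 426 on the WT array. It was lowest on the p53 KO array, 2.11-fold below WT (log2 difference -1.08), and in between on the DKO array (-0.65 against WT). It had 1 measured probe set, so no further probe set bears on it. Rnf2, the other ligase, had 4846, 3116 and 3122 units on the DKO, p53 KO and WT arrays. The p53 KO and WT arrays were level and the DKO array stood above both, by 0.64 against p53 KO and 0.63 against WT. Its second measured probe set also gave higher values on the DKO array, by 0.47 and 0.36. The paired ligase genes thus did not follow each other across the arrays.

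Bmi1, the PCGF subunit known for stem cell self-renewal, had 4782, 3241 and 4114 units on the DKO, p53 KO and WT arrays. It was lowest on the p53 KO array (-0.34 against WT) and highest on the DKO array (0.56 against p53 KO and 0.22 against WT), each under 1.5-fold. Its second probe set kept the lower value on the p53 KO array (-0.60) but gave -0.29 for DKO against WT. Pcgf6, a subunit of a variant PRC1 that also holds E2F6 and Mga, had 1241, 797 and 1611 units. It was 2.02-fold lower on the p53 KO array than on the WT array (-1.01), just past the 2-fold mark, and 0.64 higher on the DKO than on the p53 KO array. Its second measured probe set was under the floor on the p53 KO and WT arrays and stood at least 0.63 higher on the DKO array than on either, where the brighter one gave -0.38 against WT. Pcgf5, a subunit of another variant PRC1, had 3703, 2588 and 1991 units. It was highest on the DKO array and lowest on the WT array, with DKO 0.89 and p53 KO 0.38 above WT, and DKO 0.52 above p53 KO. Its second brightest probe set was also higher against WT on both knockout arrays, by 0.26 for DKO and 0.33 for p53 KO. The dimmest measured one was under the floor on the WT array, so it could not come out lower on the knockout arrays. It stood at least 1.70 higher for DKO and at least 0.43 higher for p53 KO. For DKO against p53 KO the 3 measured probe sets of Pcgf5 spread over -0.07 to 1.27, with the second brightest at -0.07. Pcgf3, the last measured PCGF gene, stayed between 795 and 963 units.

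Reader subunits of PRC1, the CBX proteins that bind methylated lysine 27 of histone H3 and the PHC proteins that join complexes into larger bodies, were more mixed. Cbx2 had 672, 599 and 389 units on the DKO, p53 KO and WT arrays. Both knockout arrays stood above WT, by 0.79 and 0.63. Cbx8 had 289, 175 and 165 units, with only the DKO array apart (0.72 against p53 KO and 0.81 against WT). Cbx6 had 1896, 2569 and 1499 units and was highest on the p53 KO array (0.78 against WT), but its second probe set gave -0.33 there. Cbx7, a CBX gene active in blood stem cells, had 161, 235 and 212 units and was lowest on the DKO array, by -0.54 against p53 KO and -0.39 against WT. Its second probe set was over the floor on the DKO array alone, at least 0.11 higher there in both comparisons. Phc1 had 887, 546 and 701 units, highest on the DKO array by 0.70 against p53 KO. Phc2 and Phc3 were also lower on the p53 KO array than on the WT array, at -0.33 and -0.49, and all 3 PHC genes were higher on the DKO than on the p53 KO array.

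**Figure D3:**
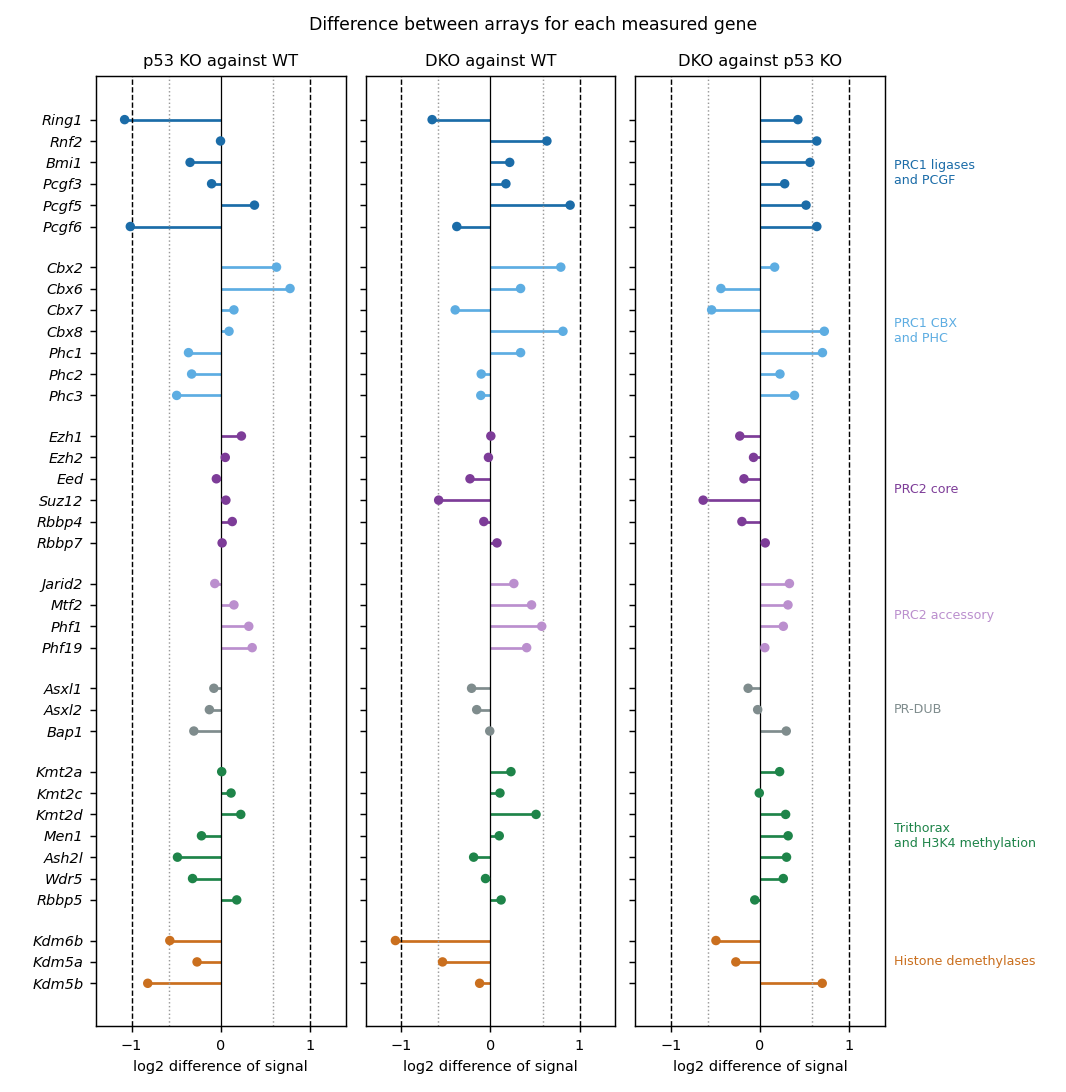
Log2 difference of signal for each measured gene (rows, coloured by complex) in the p53 KO/WT, DKO/WT and DKO/p53 KO comparisons, with dotted and dashed lines at 1.5-fold and 2-fold. Ring1 and Pcgf6 pass the dashed line on the left for p53 KO against WT and Kdm6b for DKO against WT; all 6 ligase and PCGF genes lie right of 0 for DKO against p53 KO.

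Set side by side, the PRC1 genes were mostly higher on the DKO than on the p53 KO array. By sign, 11 of 13 measured PRC1 genes were higher, with a median log2 difference of 0.43, where 58.8% of all genes were higher and their median was 0.11. The exceptions were Cbx6 and Cbx7. All 6 ligase and PCGF genes were among the higher ones, at 0.28 to 0.64, and with the next brightest probe set 4 of 5 were (median 0.33). With cyclic loess, which shifted the median of all genes by -0.11 in this comparison, 11 of 14 measured PRC1 genes were higher at a median of 0.29, and with quantile normalization 11 of 14 at 0.34. With the mean over all probe sets, 11 of 13 were higher and the median was 0.22, and with the next brightest probe set 7 of 8 were, at 0.32. At least 1.5-fold higher were 4 PRC1 genes, Rnf2, Pcgf6, Cbx8 and Phc1, where 17.0% of all genes passed that mark. Against WT, 5 of 13 PRC1 genes were higher on the p53 KO array (median -0.10, 46.2% of all genes higher) and 8 of 13 on the DKO array (median 0.22, 55.9% of all genes higher). Any 2 of the 3 comparisons share an array, so they are not independent of each other. Other PRC1 genes, on a further list of 22 with 17 measured, had a median of 0.31 for DKO against p53 KO, with 13 higher by sign and 0 at least 2-fold different. Among these 13, Scml4 and Auts2 were over the floor on the DKO array alone, so they could only come out higher there. Scml2, a Polycomb group protein gene, had 500, 261 and 714 units on the DKO, p53 KO and WT arrays (-1.45 for p53 KO against WT). Its second probe set gave 0.01 there. Scmh1, another gene of that family, had 476, 389 and 231 units (1.05 for DKO against WT), and all 3 of its measured probe sets were higher on the DKO than on the WT array. Mga, a partner of Pcgf6, was lowest on the p53 KO array like Pcgf6, at 1302, 679 and 965 units. E2f6, the other partner named above, had 2237, 2284 and 3348 units on the DKO, p53 KO and WT arrays. It was below WT on both knockout arrays (-0.55 for p53 KO and -0.58 for DKO), which were nearly level with each other (-0.03). Mga and E2f6 were chosen after their values were seen.

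PRC2 core genes were nearly level between the p53 KO and WT arrays, with a median size of 0.05 on the log2 scale. By sign, 5 of 6 were lower on the DKO than on the p53 KO array (median -0.19), where 39.7% of all genes were, and 4 of 6 with quantile normalization. The median for p53 KO against WT was 0.05 and became -0.02 with the mean over all probe sets. The median for DKO against WT was -0.05, which turned to 0.04 with quantile normalization and 0.05 with cyclic loess. Ezh2, the methyltransferase of dividing cells, had 5958, 6264 and 6048 units on the DKO, p53 KO and WT arrays. All 3 values lie within 0.07 on the log2 scale. Ezh1, its counterpart that prevails in quiescent cells, had 1152, 1348 and 1148 units, with the p53 KO array highest by 0.23 against WT. A dimmer Ezh1 probe set, under the floor on the p53 KO array, gave -0.31 for that comparison and 0.40 for DKO against p53 KO. Eed, which binds the finished mark, had 3113, 3525 and 3647 units, lowest on the DKO array by -0.23 against WT. The histone-binding subunits Rbbp4 and Rbbp7, which other chromatin complexes share, were at -0.20 and 0.06 for DKO against p53 KO and at -0.07 and 0.07 for DKO against WT. Further probe sets gave up to 0.56 for Rbbp4 and -0.31 for Rbbp7 for DKO against WT. Level Ezh2 signal stood beside proliferation markers that as a set ranged more widely. Their medians over 19 genes were 0.32 in the p53 KO/WT and -0.84 in the DKO/p53 KO comparison. With the mean over all probe sets these medians were 0.15 and -0.56. With the next brightest probe set, over 13 genes, they were -0.02 and -0.28.

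Suz12, the scaffold subunit of PRC2, was the exception. Its signal was 4175 units on the DKO array, against 6494 on the p53 KO and 6240 on the WT array. The p53 KO and WT arrays were level and the DKO array lay below both, by -0.64 and -0.58, which is 1.56-fold and 1.49-fold. All 6 measured probe sets were lower on the DKO than on the WT array, over -0.91 to -0.13, and 5 of 6 were lower on the DKO than on the p53 KO array, over -0.98 to -0.30, the dimmest giving 0.46. Suz12 was the 1 gene of the 36 at least 1.5-fold lower for DKO against p53 KO, where 12.2% of all genes passed that mark. Scaling did not alter its direction, at -0.49 and -0.55 with quantile normalization and -0.47 and -0.62 with cyclic loess for DKO against WT and against p53 KO.

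**Figure D4:**
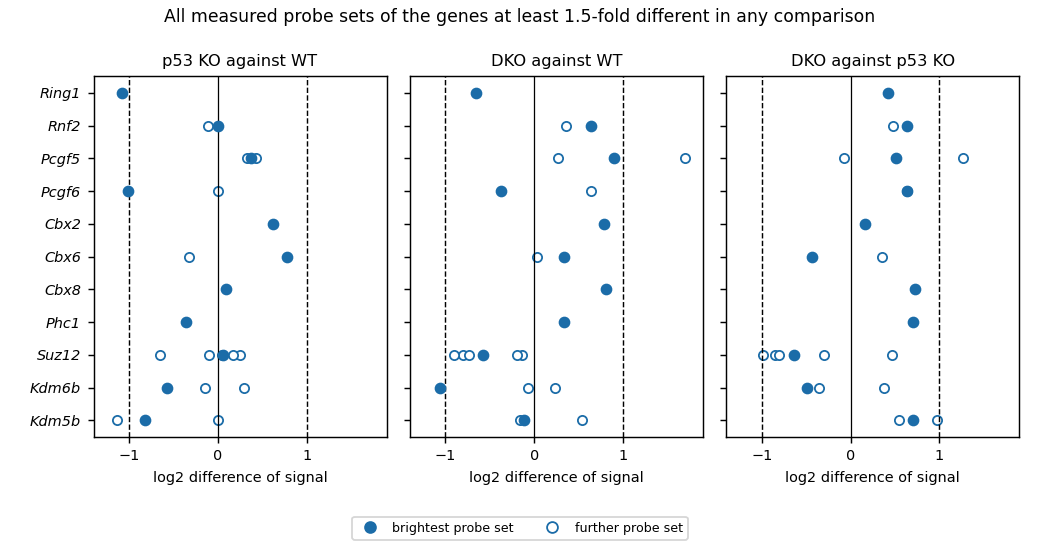
Log2 difference of signal for every measured probe set of the 11 genes at least 1.5-fold different in any comparison, with the brightest probe set filled and further ones open, and dashed lines at 2-fold. Suz12 lies left of 0 with all 6 probe sets for DKO against WT, whereas the second probe sets of Pcgf6 and Kdm6b do not repeat the value of the brightest.

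The 4 accessory genes of PRC2, whose products guide the complex to chromatin, were all higher on the DKO than on the WT array by their brightest probe sets, where 55.9% of all genes were. With probe sets unique to a transcript 3 of 4 were, and the dimmest Jarid2 probe set gave -0.22. Jarid2 had 3700, 2942 and 3082 units on the DKO, p53 KO and WT arrays (0.26 for DKO against WT). Mtf2 had 3274, 2633 and 2377 units (0.46), and 5 of its 6 measured probe sets were higher. The dimmest of these 5 was over the floor on the DKO array alone, so it could only come out higher there. Phf1 and Phf19 differed by 0.58 and 0.41, and a second Phf19 probe set by 0.79. By the brightest probe sets none of the 4 reached 1.5-fold. Of the Polycomb deubiquitinase, the catalytic gene Bap1 had 3521, 2870 and 3538 units, lowest on the p53 KO array (-0.30 against WT). A second Bap1 probe set gave -0.08 there and was lowest on the DKO array (-0.21 against WT). The partner genes Asxl1 and Asxl2 stayed within -0.21 and 0 on the log2 scale by the probe set used. A dimmer Asxl2 probe set was 1.34 lower for DKO against WT on that scale. A further list of 10 genes of PRC2 and the deubiquitinase had 8 measured and none at least 2-fold different, with medians of -0.11, -0.07 and -0.13 in the p53 KO/WT, DKO/WT and DKO/p53 KO comparisons.

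Trithorax genes of the H3 lysine 4 methyltransferase complexes were under 1.5-fold in every comparison by their brightest probe sets, for all 7 measured genes, where 48.5% of all genes reached 1.5-fold in at least 1 comparison. Dimmer probe sets of Wdr5 and Kmt2c passed that mark. Kmt2a, the methyltransferase gene rearranged in leukaemia, had 947, 813 and 807 units on the DKO, p53 KO and WT arrays. The DKO array was highest by 0.23 against WT, and the other 2 arrays were level. Men1, which encodes menin, the protein that ties Kmt2a to its targets, had 1070, 859 and 998 units, lowest on the p53 KO array (-0.22 against WT). The scaffold gene Wdr5, whose product all complexes of this type hold, had 2934, 2447 and 3047 units and was also lowest there (-0.32). Its dimmer probe set was lower on both knockout arrays than on the WT array, at -0.63 for DKO and -0.86 for p53 KO. The enhancer methyltransferase genes Kmt2c and Kmt2d were at 0.12 and 0.22 for p53 KO against WT and at 0.11 and 0.51 for DKO against WT. The dimmest of 4 measured Kmt2c probe sets gave -0.70 and -0.86 there. The core subunit genes Ash2l and Rbbp5 were at -0.49 and 0.18 for p53 KO against WT and -0.19 and 0.12 for DKO against WT, and a second Ash2l probe set gave 0.37 and -0.20. Of 16 further genes of H3 lysine 4 methylation, all were measured and none was at least 2-fold different, with medians of -0.01, -0.07 and 0.01 in the p53 KO/WT, DKO/WT and DKO/p53 KO comparisons.

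All 3 demethylase genes were lower on both knockout arrays than on the WT array by the probe sets used, where 47.0% of all genes were lower for p53 KO and 41.1% for DKO. With the mean over all probe sets 2 of 3 were lower in either comparison, with medians of -0.14 for p53 KO and -0.13 for DKO. Kdm6b, which removes methyl groups from lysine 27 of histone H3, had 1023 units on the DKO, 1441 on the p53 KO and 2141 on the WT array. The WT array was highest, and the difference was 2.09-fold for DKO (-1.07) and 1.49-fold for p53 KO (-0.57). The other 2 measured probe sets did not repeat it, with -0.07 and 0.23 for DKO against WT and 0.29 and -0.14 for p53 KO against WT. Kdm6b lies on chromosome 11 with 3 protein-coding genes between it and the p53 gene in the RefSeq order of GRCm38.p6. Of 17 measured genes among the 10 protein-coding genes on either side of the p53 gene, Atp1b2, the next gene on the other side, was at 227, 170 and 3537 units, and 1 of the 17 was at least 2-fold lower for p53 KO and 2 for DKO, which were Atp1b2 in both and Kdm6b in DKO. Any part of sequence around the targeted locus in the Kdm6b value was not tested.

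Kdm5b, which removes methyl groups from lysine 4 of histone H3, had 1472, 907 and 1601 units on the DKO, p53 KO and WT arrays. The p53 KO array alone was low, by -0.82 against WT, and DKO was higher than p53 KO by 0.70. Of its 3 measured probe sets, 2 were lower for p53 KO against WT, at -0.82 and -1.13, and the dimmest stood at 0.00 with both arrays under the floor. The 2 brighter ones were higher for DKO against p53 KO, by 0.70 and 0.98. The dimmest was over the floor on the DKO array alone, so it could only come out higher there. Kdm5a, its homologue, had 842, 1016 and 1222 units, highest on the WT array (-0.54 for DKO and -0.27 for p53 KO), but its 5 measured probe sets spread over -0.54 to 0.17 and over -0.47 to 1.37. On a further list of 7 demethylase genes, all measured, none was at least 1.5-fold different in any comparison. Of all measured genes, 48.5% reached that mark in at least 1 comparison. That list left out the demethylase gene Kdm6a, which was counted with the further genes of H3 lysine 4 methylation. Kdm6a had 677, 1100 and 730 units on the DKO, p53 KO and WT arrays. Its p53 KO signal was highest, 0.59 over WT, and the DKO/p53 KO difference was -0.70. Both differences passed 1.5-fold. Kdm6a was chosen after its values were seen.

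Known targets of these complexes were read on the same arrays. Of 24 Hox and cofactor genes named there, 14 were below the floor on all 3 arrays and 4 of the other 10 reached it on the DKO array but not on the WT array, so no median is given for the list. Hoxa9, a homeobox gene of stem and progenitor cells, had 11734 units on the DKO, 5711 on the p53 KO and 6973 on the WT array. It was highest on the DKO array, by 1.04 against p53 KO and 0.75 against WT, and both measured probe sets were higher in each comparison, over 1.04 to 1.18 and 0.75 to 1.02. Meis1, the partner of Hoxa9, had 4505, 2373 and 2169 units. Again the DKO array alone stood apart, by 0.92 against p53 KO and 1.05 against WT, with all 3 measured probe sets higher in both comparisons. Hoxc6 had 393, 231 and 87.1 units and was higher on the DKO array by at least 1.83 against WT, whose signal was below the floor, but 2 of its 3 probe sets were lower there. The higher Hoxa9 and Meis1 signals on the DKO array stood beside the higher Cd34 and Flt3 and the lower erythroid markers of that array, and a part of cell make-up in them was not tested.

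The cell cycle inhibitor genes Cdkn2a and Cdkn2b, the classical targets of Bmi1 and PRC2, were below the floor on all 3 arrays, at 40.5 to 47.7 and 16.6 to 46.2 units. Neither could therefore be compared. The other 4 inhibitor genes of the list were all higher on the p53 KO than on the WT array, where 46.2% of all genes were. Their median log2 difference was 1.07, and 0.83 with the mean over all probe sets. Cdkn2c, a G1 inhibitor, had 1751, 4643 and 1950 units on the DKO, p53 KO and WT arrays, and the p53 KO array alone was high (1.25 against WT). Cdkn1b had 1084, 1729 and 781 units, highest on the p53 KO array (1.15). Cdkn1a, a p53 target, had 648, 569 and 291 units and was higher on both knockout arrays, by 1.15 for DKO and 0.97 for p53 KO against WT. Its second probe set gave 0.25 and 0.39. These values stood on an array where monocyte, granulocyte, B cell and megakaryocyte markers were higher too, and their part was not tested.

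**Figure D5:**
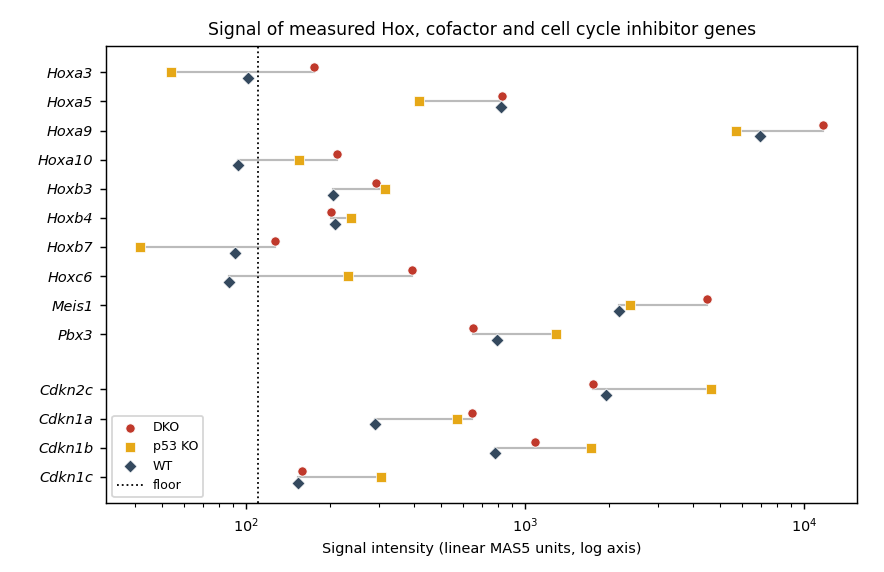
Signal on the DKO, p53 KO and WT arrays (linear units, log axis) for the 10 Hox and cofactor genes and the 4 cell cycle inhibitor genes at or over the floor of 110.4 (dotted line) on at least 1 array. Hoxa9 and Meis1 are highest on the DKO array and Cdkn2c and Cdkn1b on the p53 KO array.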

How the data were processed

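Total RNA of LSK cells came from RNeasy preparations and was biotin-labelled with a one-cycle kit, per the labels' protocols. The deposited values are linear signal intensities for 45101 probe sets on each of 3 arrays, made with GCOS and MAS5 per the submitters' processing notes, with no version stated. The 2% trimmed mean was 500.0 on every array, so the deposited values already carry global scaling, and no detection call was used. Symbols came from the platform annotation, updated by Entrez ID through RefSeq (GRCm38.p6) for 34754 probe sets; 34958 had 1 gene, 932 several and 9211 none. Log2 was taken after raising signals under 110.4 to that floor (Python 3.11.15, numpy 2.4.6, pandas 2.3.3); a gene was measured when it reached the floor on 1 array. Each genotype had a single array, so nothing was tested, and the number of arrays limits the precision. A background limited to genes of mean signal at or over 448.4 was chosen after seeing the data. The level of p53 itself is not reported here. The genes and lists were chosen with earlier results of these data known. All listed genes could be named; genes of further lists were named when at least 2-fold different, up to 4 a list. Motifs for Sp, NF-Y, YY1, NRF1 and CACCC factors were also searched and are not described. Alternatives included limma 3.58.1 (cyclic loess, 3 iterations), and the calculation was tested on simulated data.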

Additional observations from a re-analysis of the deposited data

How the results depend on the processing

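No paired analysis was possible because each genotype had 1 array. The median log2 difference of the listed genes moved by under 0.10 with rescaling, quantile normalization, cyclic loess, other floors, a pseudocount of 32 or probe sets unique to a transcript; for DKO against p53 KO it was 0.24, against 0.094 with the mean over all probe sets and 0.13 with the next brightest probe set (26 genes). The 2 genes at least 2-fold lower for p53 KO against WT were Ring1 and Pcgf6; 1 gene passed with quantile normalization, cyclic loess or the mean over all probe sets (Ring1), with the floor at the 75th percentile (Pcgf6) and with the next brightest probe set (Kdm5b, neither of the 2), and 0 with a pseudocount or at 3-fold. For DKO against WT the 1 gene at least 2-fold lower, Kdm6b, gave way to Asxl2 with the next brightest probe set, and the count was 0 with the mean over all probe sets or at 3-fold and 2 at 1.5-fold. With the floor at the 25th percentile 1 gene, Pcgf1, was at least 2-fold higher for DKO against p53 KO (1.15). At that floor Pcgf1 was also at least 2-fold lower for p53 KO against WT (-1.68), beside Ring1 and Pcgf6. At 1.5-fold, 2, 4 and 5 genes were higher in the p53 KO/WT, DKO/WT and DKO/p53 KO comparisons, and 1 was lower in the last. The cause was not tested where no threshold or floor was altered. Of all genes past 2-fold for DKO against WT, 62.8% were higher, against 49.4% with quantile normalization and 47.0% with cyclic loess; for DKO against p53 KO the shares were 40.9%, 32.7% and 26.5%. Signal near the floor limits Ring1 (202 units on the p53 KO array), Cbx7, Cbx8, Phf1 and the second probe set of Pcgf6.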

Other observations

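Subunits of SWI/SNF, the chromatin remodelling complex that counts among trithorax proteins, were measured for 17 of 18 listed genes. For DKO against p53 KO, 2 were at least 2-fold higher, where 4.10% of all genes were, and the median was 0.22. Smarcc1, a core scaffold gene, had 7408, 3645 and 5848 units on the DKO, p53 KO and WT arrays, highest on the DKO array by 1.02 against p53 KO, and 2 of its 3 measured probe sets were higher there. Smarcd1, an accessory subunit gene, had 321, 160 and 215 units (1.01 for DKO against p53 KO) with 1 measured probe set. Phf10, a subunit gene of the polybromo form, had 3011, 4433 and 6504 units and was lower on the DKO than on the WT array (-1.11), as were both of its probe sets. The catalytic gene Smarca4 had 3721, 3736 and 3636 units, level across the arrays, and was chosen after its values were seen.

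Proliferation markers were lower on the DKO than on the p53 KO array for 18 of 19 genes, 3 of them at least 2-fold, where 5.93% of all genes were. Rrm2, a subunit of the enzyme that makes DNA building blocks, had 10852, 28502 and 13534 units on the DKO, p53 KO and WT arrays. The mitotic kinase genes Aurka (1103, 2492 and 1614 units) and Bub1 (1093, 2356 and 1819 units) were likewise highest on the p53 KO array. For Bub1, 1 of 2 measured probe sets was instead lower on the p53 KO than on the WT array (-0.17).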
